A study of Mus musculus with 8 samples.

Results

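Complement is a set of plasma and surface proteins that tag and lyse cells and recruit leukocytes. Its classical and lectin arms start from serine proteases (C1r and C1s, or the MASP proteases), its alternative arm runs on complement factor B, and the arms meet at the cleavage of C3. Host cells hold the cascade in check with membrane inhibitors such as CD55 and CD59 and with secreted ones such as the C1 inhibitor and clusterin. Most complement proteins of plasma come from the liver, but carcinoma cells and other cells also transcribe several of the genes.

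The 9 genes described here are complement components (C3, Cfb, C1s1, C1ra, Masp1) and inhibitors (Cd55, Cd59a, Serping1, Clu), matched by symbol to Ensembl identifiers among the 16341 genes of a raw count table. The table covers 8 RNA-seq libraries of 4T1, a mouse mammary carcinoma line, sorted by the surface protein SCA1, which Ly6a encodes. Group 4T1-Sca1+ and group 4T1-Sca1- had 4 libraries each, and the comparison asks how SCA1-bearing cells differ from the other cells of the same line. The labels name no engineered allele and no treatment for either group. The labels give CD45-Sca1+ and CD45-Sca1- sorts. The source label names the parental line, whereas the extraction protocol speaks of stained tumor and of magnetic columns. The study's text, like the source label, states that the profiled cells were taken from the parental line. Because the labels differ, the groups are called here only by the marker. All cells come from a single carcinoma line. Nothing in the labels says that the 4 replicates came from separate sorts, so p-values measure the spread between these libraries, which may be technical.

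Total counts per library were 15041995 to 16968215 in 4T1-Sca1+ and 13561804 to 16142836 in 4T1-Sca1-. Ly6a, the gene of the sorted protein, reached a normalized count of 167 ± 20.2 (SD, n = 4) in 4T1-Sca1+ and 1.79 ± 1.73 in 4T1-Sca1-, which follows the labels. A normalized count is a count divided by the size factor of its library. The epithelial keratin genes Krt8, Krt18 and Krt19 had at least 2272 counts in every library, and Krt5 at most 2. Krt14 of the same list had 525 to 641 counts in 4T1-Sca1+ libraries and 578 to 653 in 4T1-Sca1- ones. It was called lower in 4T1-Sca1+ (log2 fold change -0.23, edgeR adjusted p = 0.00346). Ptprc, the CD45 gene, had at most 4 counts in any library, whereas other genes of the leukocyte list were well detected and are given with the other markers after the complement genes.

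All 9 genes had counts, 7 had enough to be tested, and these 7 were higher in 4T1-Sca1+ cells (edgeR quasi-likelihood test, adjusted p under 0.05). The other two, Cd55 and Cd59a, were at or near 0 in both groups. Among all 11717 genes tested, 31.3% were called higher in 4T1-Sca1+ and 30.2% lower. Of the 7 genes, 4 had a log2 fold change of at least 1, a size that 5.22% of all tested genes reached in that direction. In all 7 the lowest 4T1-Sca1+ library lay above the highest 4T1-Sca1- library, as in 26.8% of all tested genes. The median log2 fold change of the 7 was 1.15 (range 0.31 to 2.28) and that of all tested genes was 0.0074. Without a low-count filter the median over the 9 was 0.68, with 7 called higher and 0 lower by edgeR, 0 lower at an unadjusted p under 0.05, and 0 lower by DESeq2. Cfb and Serping1 passed the filter only with the help of the group in which they were higher, so the count and the median over the tested genes describe them and support nothing further. The study itself drew C1s1, C1ra, Clu and Masp1 into lists of genes raised in SCA1+ cells from these same libraries, so their direction here is not independent of that choice. In bulk RNA, more cells with a transcript and more transcript per cell cannot be told apart.

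**Figure D1:**
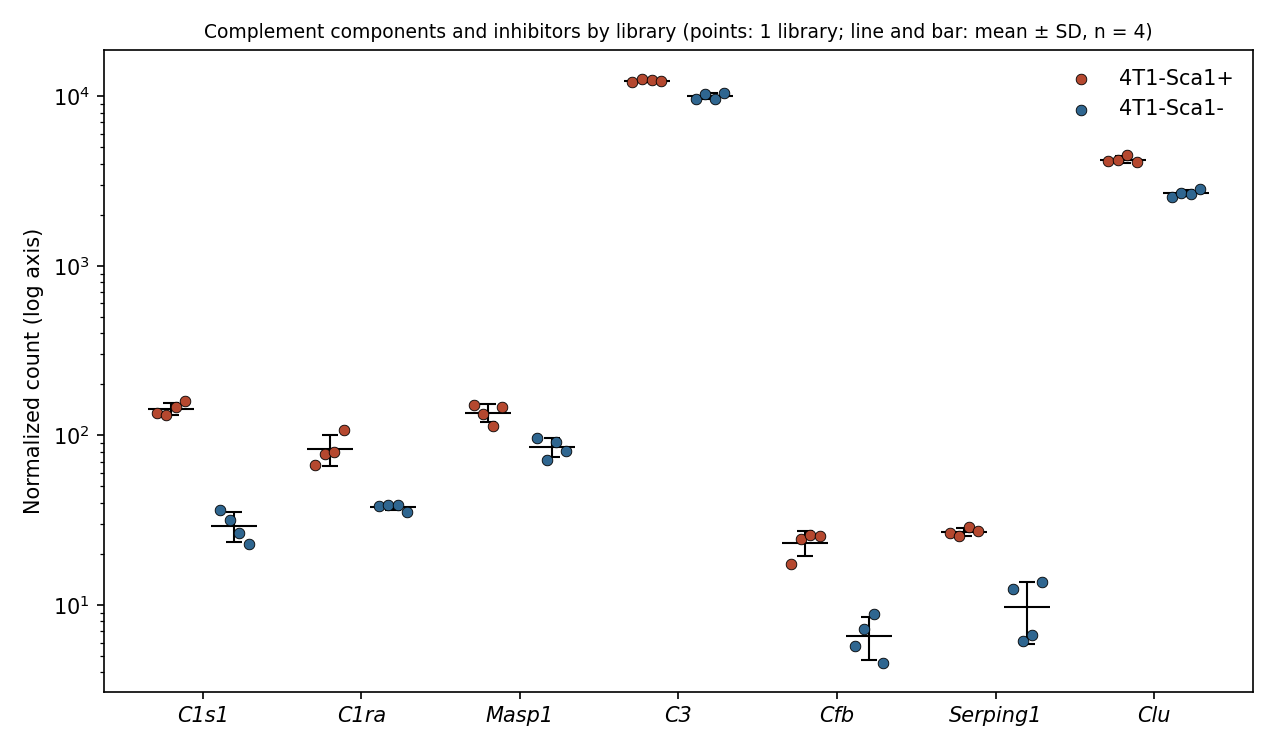
Normalized counts of the 7 tested genes on a log axis, with 1 point per library, 4T1-Sca1+ in red and 4T1-Sca1- in blue, and the mean ± SD (n = 4). The groups do not overlap for any of the 7 genes, and the levels run from 4.57 for Cfb in a 4T1-Sca1- library to 12594 for C3 in a 4T1-Sca1+ library.

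C1s1 and C1ra encode the C1s and C1r proteases that, bound to C1q, open the classical pathway. C1s1 (ENSMUSG00000038521, chr6:124530345-124542359, minus strand, GRCm38) had normalized counts of 135, 132, 148 and 159 in the 4T1-Sca1+ libraries and of 36.3, 31.8, 26.7 and 22.8 in the 4T1-Sca1- libraries. The lowest of the former was over 3-fold the highest of the latter. Its means were 144 ± 12.4 and 29.4 ± 5.88, a log2 fold change of 2.28 ± 0.14 (SE, adjusted p = 3.30e-10), or 4.86-fold (95% interval 4.01 to 5.90). This was the highest log2 fold change among the 9 genes, and 99.0% of all tested genes had a lower log2 fold change.

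C1ra (ENSMUSG00000055172, chr6:124512405-124523443, plus strand) lies next to C1s1 and is read in the opposite direction. Its normalized counts were 66.7, 77.9, 79.8 and 108 in 4T1-Sca1+ and 38.2, 39.0, 39.0 and 35.4 in 4T1-Sca1-. The 4T1-Sca1- libraries were nearly level, and replicate 4 was the highest of the 4T1-Sca1+ libraries. The log2 fold change was 1.15 ± 0.16 (adjusted p = 1.03e-05), and 0.99 without that library.

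Both genes have a close copy in the mouse genome. Of the 50-base windows of the longest C1s1 transcript, 24.3% also occurred in C1s2, and 48.0% of those of C1ra occurred in C1rb, so the split of reads between copies is uncertain. Copies were therefore also summed. C1s1 plus C1s2 averaged 164 ± 15.6 normalized counts in 4T1-Sca1+ and 32.9 ± 6.07 in 4T1-Sca1-, a ratio of 4.98. C1ra plus C1rb had 85.6 ± 18.1 and 39.2 ± 1.13, a ratio of 2.18. The groups did not overlap in either sum. C1rb itself had 16 counts over the 8 libraries.

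The C1r and C1s genes sit side by side on chromosome 6. Within 200 kb of C1s1, the 4 complement genes with enough counts (C1rl, C1ra, C1s1, C1s2) were all higher in 4T1-Sca1+. Of the 6 other tested genes in that window, 2 were higher, 2 were lower and 2 were not called. Ptpn6, a phosphatase gene, was higher with a log2 fold change of 0.63, and Emg1 and Phb2 were lower with -0.32 and -0.29. Lpcat3, the nearest tested gene beyond C1s2, had a log2 fold change of -0.03 (adjusted p = 0.728). Among all tested genes, 31.3% were called higher in 4T1-Sca1+ and 30.2% lower. C1rl and C1s2 passed the low-count filter only with the 4T1-Sca1+ libraries, and the study's lists hold C1rl, C1ra and C1s1. The count of the 4 therefore describes these genes and supports nothing further.

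**Figure D2:**
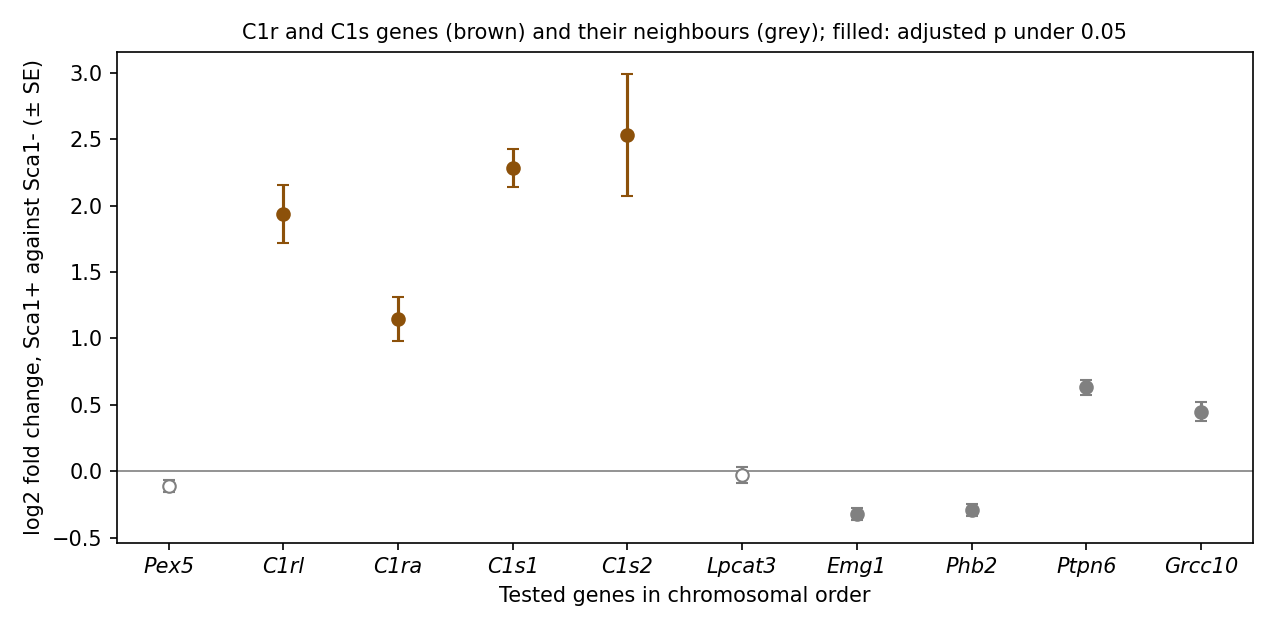
log2 fold change (± SE from edgeR) of the tested genes around C1s1, in chromosomal order and not to scale, with complement genes in brown and other genes in grey and open symbols for genes not called. The 4 complement genes lie between 1.15 and 2.53, and the 6 neighbours between -0.32 and 0.63. C1rl and C1s2 passed the low-count filter only with the 4T1-Sca1+ libraries.

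The start regions of these adjacent genes and of C3, which had the highest counts of the 9, are given for comparison. The 250 bases before their RefSeq starts (GRCm38.p6) are printed 5′ to 3′ on the gene's strand. Of the 9 genes, 5 had an entry in the promoter table used. Capitals mark matches to the C/EBP-type motif TTGCNNAA, the one motif found of 4 searched on both strands. The windows are chr6:124492863-124493112 for C1rl (plus), chr6:124512371-124512620 for C1ra (plus), chr6:124542360-124542609 for the more upstream of the C1s1 starts (minus), chr6:124636086-124636335 for C1s2 (minus) and chr17:57228137-57228386 for C3 (minus).
C1rl: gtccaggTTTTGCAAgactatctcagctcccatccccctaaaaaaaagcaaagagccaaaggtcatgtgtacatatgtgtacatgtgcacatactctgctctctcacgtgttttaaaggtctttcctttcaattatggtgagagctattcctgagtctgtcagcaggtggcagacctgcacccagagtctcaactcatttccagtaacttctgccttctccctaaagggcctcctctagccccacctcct
C1ra: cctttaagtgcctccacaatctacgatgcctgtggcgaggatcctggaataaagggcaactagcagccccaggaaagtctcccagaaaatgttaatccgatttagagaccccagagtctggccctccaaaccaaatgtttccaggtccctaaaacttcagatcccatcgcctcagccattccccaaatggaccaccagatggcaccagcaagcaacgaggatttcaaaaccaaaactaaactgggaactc
C1s1: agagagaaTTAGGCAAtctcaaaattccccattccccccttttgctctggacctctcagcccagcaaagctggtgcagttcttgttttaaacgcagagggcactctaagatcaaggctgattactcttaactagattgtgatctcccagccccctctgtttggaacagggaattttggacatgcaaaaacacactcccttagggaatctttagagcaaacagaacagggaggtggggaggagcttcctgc
C1s2: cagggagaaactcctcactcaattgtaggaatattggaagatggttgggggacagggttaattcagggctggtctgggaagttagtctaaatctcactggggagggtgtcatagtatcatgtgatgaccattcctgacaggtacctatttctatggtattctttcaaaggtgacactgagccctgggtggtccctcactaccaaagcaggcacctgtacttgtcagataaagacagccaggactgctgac
C3: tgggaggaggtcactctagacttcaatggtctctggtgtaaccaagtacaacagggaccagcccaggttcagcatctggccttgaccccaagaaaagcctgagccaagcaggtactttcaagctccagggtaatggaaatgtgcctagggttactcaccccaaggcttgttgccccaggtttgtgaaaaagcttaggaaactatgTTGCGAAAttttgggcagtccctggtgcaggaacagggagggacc
The C3 match ran from 45 to 38 bases before the start, the C1s1 match from 242 to 235 and the C1rl match from 243 to 236, the last 2 on the opposite strand. The windows of C1ra, of C1s2 and of the second C1s1 start (chr6:124542322-124542571, not printed) held none of the motifs. The C1ra window lies mostly inside the gene span given above, which starts at 124512405, because RefSeq places its start further downstream. Among 32851 promoter windows of this length, 9.56% held such a match. No match was found to TTCNNNGAA (STAT-type, in 7.02% of windows), TATAAA (12.4%) or an NF-kappaB-type motif (7.25%). These are letter matches, and binding was not measured.

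Masp1 (ENSMUSG00000022887, chr16:23449417-23520815, minus strand) encodes the lectin-pathway protease MASP-1 and, by alternative splicing, MASP-3, which counts per gene do not separate. Its normalized counts were 151, 134, 114 and 146 in 4T1-Sca1+ and 96.5, 71.9, 91.3 and 81.0 in 4T1-Sca1-. The groups were close but did not overlap. The log2 fold change was 0.69 ± 0.12 (adjusted p = 9.94e-05), or 1.61-fold (95% interval 1.37 to 1.91).

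C3 (ENSMUSG00000024164, chr17:57203970-57228136, minus strand) is the protein on which all arms converge. It had by far the highest counts of the 9. Its normalized counts, which are not corrected for length, were 12073, 12594, 12416 and 12273 in 4T1-Sca1+. In 4T1-Sca1- they were 9672, 10236, 9651 and 10494. It took 0.0828% and 0.0646% of all counts. The replicates lay within narrow bands, and the difference was small: a log2 fold change of 0.31 ± 0.04 (adjusted p = 4.34e-06), or 1.24-fold (95% interval 1.17 to 1.32). Of all tested genes, 77.0% had a lower log2 fold change than C3, the smallest difference of the 7.

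Cfb (ENSMUSG00000090231, chr17:34856374-34862518, minus strand), the protease subunit of the alternative-pathway C3 convertase, was scarce. Its normalized counts were 17.4, 24.7, 25.9 and 25.4 in 4T1-Sca1+ and 5.73, 7.19, 8.91 and 4.57 in 4T1-Sca1-. All 4T1-Sca1- libraries were under 10, and replicate 1 was the lowest of the 4T1-Sca1+ libraries. The log2 fold change was 1.82 ± 0.28 (adjusted p = 2.63e-05), or 3.52-fold (95% interval 2.40 to 5.17). A readthrough gene model, Gm20547, shares 81.4% of the 50-base windows of the longest Cfb transcript and had 0 counts, so Cfb reads may have been lost in counting, and its level is uncertain.

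Serping1 (ENSMUSG00000023224, chr2:84765387-84775444, minus strand) encodes the C1 inhibitor, which inactivates C1r, C1s and the MASP proteases. Its normalized counts were 26.5, 25.6, 28.9 and 27.1 in 4T1-Sca1+ and 12.4, 6.16, 6.68 and 13.7 in 4T1-Sca1-. The 4T1-Sca1+ libraries were nearly level, and the 4T1-Sca1- libraries fell into a lower pair and a higher pair. The log2 fold change was 1.47 ± 0.26 (adjusted p = 8.63e-05), or 2.78-fold (95% interval 1.96 to 3.94).

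Clu (ENSMUSG00000022037, chr14:65968483-65981547, plus strand) encodes clusterin, a secreted chaperone that also blocks the terminal membrane attack complex. It had the second highest counts of the 9, with normalized counts of 4140.3, 4218, 4492 and 4071 in 4T1-Sca1+ and 2546, 2679.7, 2667 and 2846 in 4T1-Sca1-. The lowest 4T1-Sca1+ library lay well above the highest 4T1-Sca1- library. The log2 fold change was 0.67 ± 0.05 (adjusted p = 1.85e-09), or 1.59-fold (95% interval 1.49 to 1.70).

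The membrane inhibitors among the 9 were not expressed at a measurable level in either group. Cd55 (ENSMUSG00000026399, chr1:130439027-130462744, minus strand), the decay-accelerating factor that dismantles C3 convertases, had a single count in all 4T1-Sca1+ libraries together (1 in replicate 4) and 2 counts in 4T1-Sca1-, both in replicate 1. Cd59a (ENSMUSG00000032679, chr2:104095801-104115354, plus strand), which blocks the last step of the membrane attack complex, had 1, 0, 0 and 3 counts in 4T1-Sca1+ and 0, 1, 2 and 2 in 4T1-Sca1-. Neither passed 3 counts in any library, and no fold change is given for them. This floor of 3 counts per library corresponds to 0.177 to 0.199 CPM (counts scaled to the library total) in 4T1-Sca1+. In 4T1-Sca1- it corresponds to 0.186 to 0.221 CPM, counting error only. Their near copies Cd55b and Cd59b were not analysed here.

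Per exon length, as reads per kilobase of exon scaled to library size (RPKM), the order of levels in 4T1-Sca1+ was C3 (159 ± 2.66), Clu (81.4 ± 3.33), C1s1 (3.03 ± 0.261), C1ra (1.84 ± 0.387), Masp1 (0.916 ± 0.114), Serping1 (0.769 ± 0.0377) and Cfb (0.546 ± 0.0931), then Cd59a and Cd55. The ranges of Masp1 and Serping1 overlapped, as did those of Cd59a and Cd55. In 4T1-Sca1- the order was C3 (128 ± 5.23), Clu (51.2 ± 2.36), C1ra (0.833 ± 0.0373), C1s1 (0.616 ± 0.123), Masp1 (0.568 ± 0.0737), Serping1 (0.275 ± 0.109) and Cfb (0.153 ± 0.0436). There C1s1 and Masp1 overlapped, and so did Serping1 and Cfb. C1s1 and C1ra thus stood in opposite order in the 2 groups. C3 was higher in RPKM than 98.0% of tested genes and Clu than 93.9%, whereas C1s1 was higher than 19.7% and Cfb than 4.56%. Exon length is the union over a gene's transcripts, 5143 bases for C3, 3437 for Clu and 9833 for Masp1. Their longest transcripts have 5136, 1810 and 5345 bases. The gap between C3 and Clu and the place of Masp1 therefore depend on the length used. The place of Cfb is uncertain too, since its reads may have been lost in counting.

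**Figure D3:**
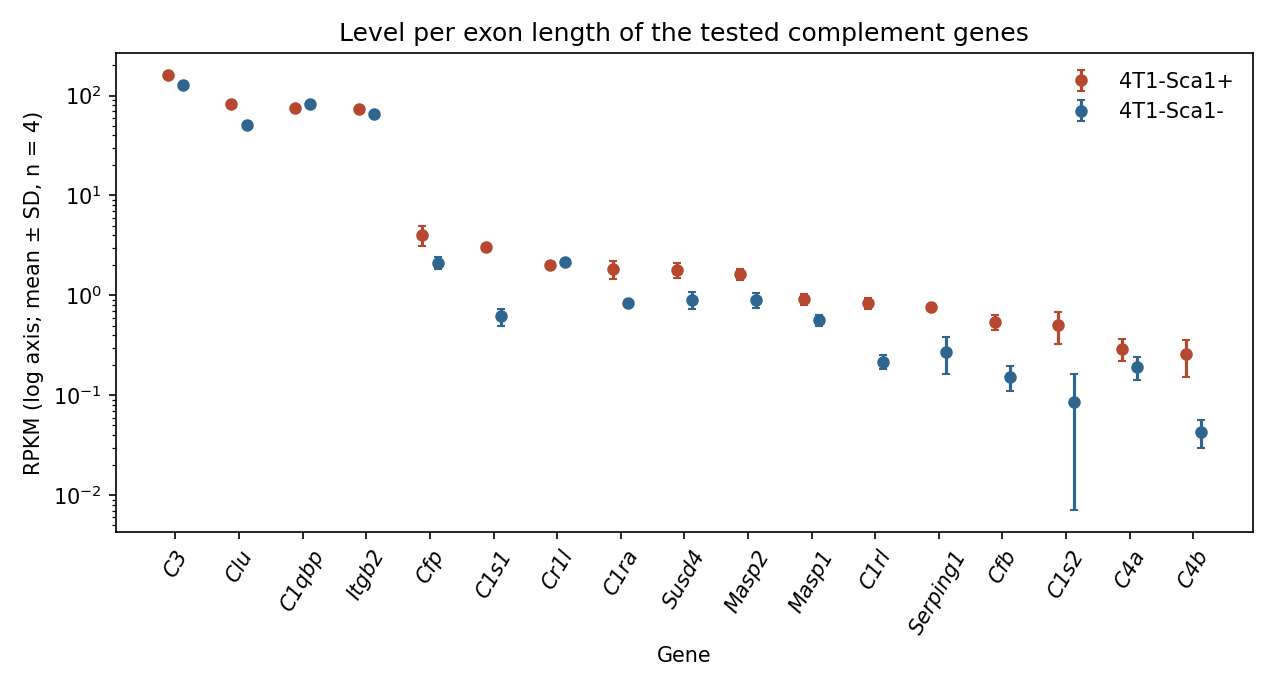
RPKM (log axis, mean ± SD, n = 4) of the tested complement genes, ordered by level in 4T1-Sca1+ (red) with 4T1-Sca1- (blue). C3, Clu, C1qbp and Itgb2 stand above 50 RPKM in both groups, and the mean of every other gene lies below 5.

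Whether pairs of these genes changed to an unequal extent was tested as the log2 ratio of their counts (0.5 added) within each library, which does not depend on library scaling. Of 5 ratios tested, 4 differed between the groups (two-sided exact permutation test over the 8 libraries, p = 0.0286 each, the smallest that 4 against 4 can give, adjusted p = 0.0357). The fifth, Cd55 to Cd59a, was between genes at the floor and has no usable value. Of the 4, all but Cfb to C3 contain C1s1, so they are not separate findings. The share of other gene pairs that reach this p was not determined. Since 31.3% of all tested genes were called higher in 4T1-Sca1+ and 30.2% lower, the count of 4 only describes these pairs.

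The log2 ratio of C1s1 to C1ra was 0.81 ± 0.19 (SD, n = 4) in 4T1-Sca1+ and -0.38 ± 0.25 in 4T1-Sca1-, a difference of 1.18 that moved C1s1 from 0.769 to 1.75 reads per C1ra read. With the near copies summed the difference was 1.22. The log2 ratio of C1s1 to its inhibitor Serping1 was 2.39 ± 0.10 and 1.60 ± 0.67, a difference of 0.78 that was 0.48 without 4T1-Sca1- replicate 4. Both genes were higher in 4T1-Sca1+, C1s1 by more. Serping1 passed the low-count filter only with the help of the 4T1-Sca1+ libraries, so its ratio describes the pair and supports nothing further.

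For the alternative pathway, the log2 ratio of Cfb to C3 was -9.04 ± 0.25 in 4T1-Sca1+ and -10.49 ± 0.42 in 4T1-Sca1-, a difference of 1.46. C3 outnumbered Cfb greatly in both groups. Cfb had at most 8 counts in a 4T1-Sca1- library and passed the low-count filter only through the 4T1-Sca1+ libraries. The pairs were set by function, and the ratios do not use that filter. However, the genes were chosen with earlier results of these data known, and the ratios use the same counts as the fold changes. The ratio of Cfb to C3 therefore describes these genes and supports nothing further. Between the lectin and classical proteases, the log2 ratio of Masp1 to C1s1 was -0.08 ± 0.23 in 4T1-Sca1+ and 1.53 ± 0.30 in 4T1-Sca1-, a difference of -1.61. Counts of the pair were about level in 4T1-Sca1+, and Masp1 led in 4T1-Sca1-.

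**Figure D4:**
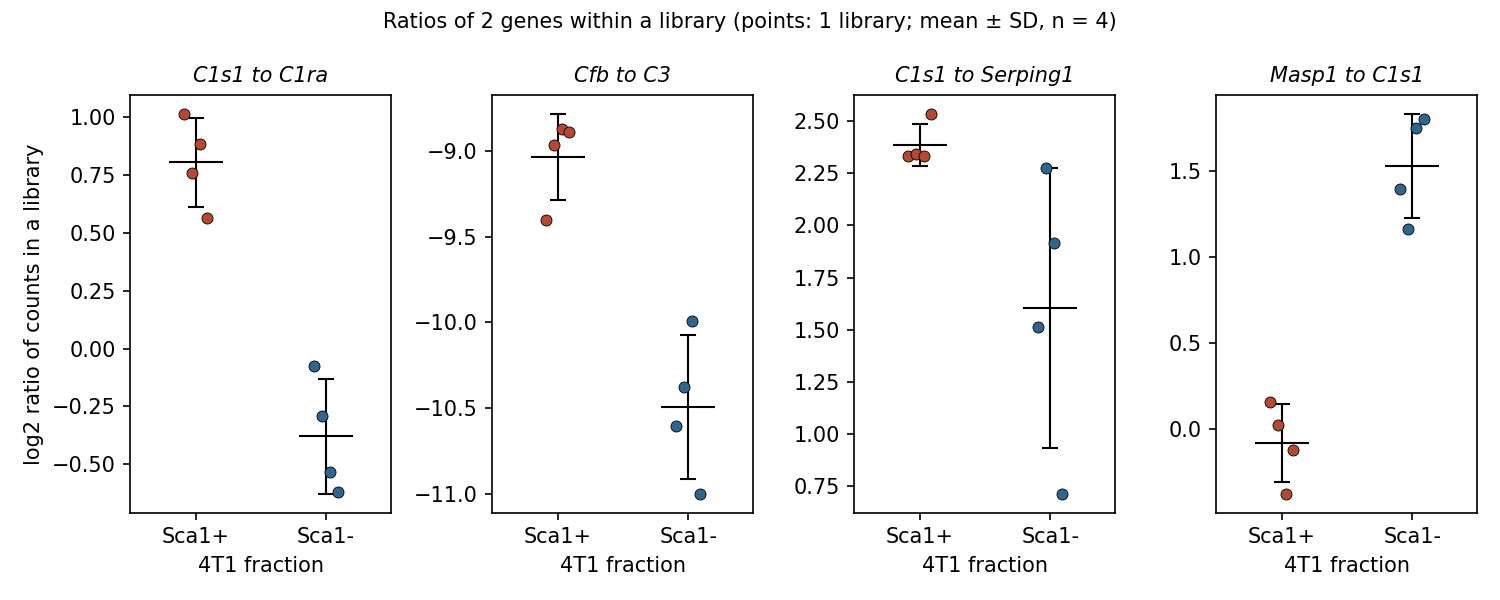
log2 ratio of the counts of 2 genes in the same library, with 1 point per library and the mean ± SD (n = 4) for each group, each panel on its own axis. The groups do not overlap in any panel, and the share of other gene pairs without overlap was not determined. The narrowest gap is in C1s1 to Serping1, where 1 4T1-Sca1- library reached 2.28 against 2.33 for the lowest 4T1-Sca1+ library.

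Beyond the 9, 52 further complement genes were listed. Of these 30 were in the count table and 10 had enough counts to be tested. Of the 10, 8 were higher in 4T1-Sca1+, 1 was lower and 1 was not called. Over all tested genes, 31.3% were called higher in 4T1-Sca1+ and 30.2% lower. The median log2 fold change of the 10 was 0.89. C1rl, C1s2 and C4b passed the low-count filter only with the 4T1-Sca1+ libraries, so the same limit applies to that median, and without the filter the median over the 30 was 0.31. The study's lists from these libraries also hold C1rl.

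Of 17 classical and lectin components, 5 were tested and all 5 were higher, against 31.3% of all tested genes. Of the 5, C1rl, C1s2 and C4b passed the low-count filter only with the 4T1-Sca1+ libraries, so this count supports nothing further. C1rl, a C1r-like protease gene, averaged 38.5 ± 4.95 normalized counts in 4T1-Sca1+ and 9.98 ± 1.59 in 4T1-Sca1- (log2 fold change 1.94 ± 0.22, adjusted p = 6.94e-07). C1s2 had 20.3 ± 7.16 and 3.50 ± 3.21 (log2 fold change 2.53 ± 0.46, adjusted p = 0.000124). C4 is a substrate of C1s and of MASP-2, and its genes C4a and C4b share 35.2% of their 50-base windows. C4b had 22.1 ± 8.87 and 3.72 ± 1.16 (log2 fold change 2.56 ± 0.40, adjusted p = 2.90e-05). C4a had 27.5 ± 6.71 and 18.0 ± 4.70, with overlapping groups (log2 fold change 0.64 ± 0.25, adjusted p = 0.0319), and lost its call under DESeq2 (0.62, adjusted p = 0.0934) and with GC-corrected offsets (0.54, adjusted p = 0.0522). It also lost it without 4T1-Sca1+ replicate 1 or 4 or without 4T1-Sca1- replicate 1 or 4 (log2 fold changes of 0.47 to 0.59, edgeR adjusted p of 0.0764 to 0.129). Summed, they had 49.6 ± 10.6 and 21.8 ± 4.28, with no overlap. Masp2, the MASP-2 protease gene, had 82.5 ± 10.4 and 45.9 ± 7.93 (log2 fold change 0.86 ± 0.15). However, 1817 of its exonic bases lie opposite exons of the abundant gene Tardbp, which holds 57.2% of the 50-base windows of the longest Masp2 transcript. The library kit named in the labels does not mark strand, so reads in that part cannot be told apart from those of Tardbp. How such reads were counted is not given, and the level of Masp2 is uncertain.

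Among 9 alternative and terminal components 1 was tested. Cfp, which encodes properdin, the stabilizer of the alternative convertase, averaged 106 ± 25.4 normalized counts in 4T1-Sca1+ and 56.5 ± 7.43 in 4T1-Sca1- (log2 fold change 0.93 ± 0.17, adjusted p = 0.000148). Of 8 fluid-phase regulators listed, 2 had counts and neither had enough to be tested.

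Of 9 membrane regulators 2 were tested. Cr1l, which encodes Crry, the broad rodent inhibitor of C3 activation on host cells, had 318, 305, 307 and 329 in 4T1-Sca1+ and 319, 352, 336 and 366 in 4T1-Sca1-. The groups overlapped, and the log2 fold change of -0.11 ± 0.07 was not called (adjusted p = 0.174) and turned to 0.016 with GC-corrected offsets. The 95% interval of the fold was 0.845 to 1.02. The level of Cr1l was 2.01 ± 0.0744 RPKM in 4T1-Sca1+ and 2.17 ± 0.128 in 4T1-Sca1-. Susd4, a complement-binding membrane protein gene, was at 1.80 ± 0.298 and 0.909 ± 0.182 RPKM. Its normalized counts were 105 ± 17.6 and 53.5 ± 10.7 (log2 fold change 0.98 ± 0.16, adjusted p = 3.00e-05). Cd46 had 16 counts in all 4T1-Sca1+ libraries together and 10 in the 4T1-Sca1- ones and was not tested.

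Of 9 receptors 2 were tested. Itgb2 encodes the beta chain of the C3-fragment receptors CR3 and CR4 and had 3354 ± 121 and 3058 ± 146 (log2 fold change 0.15 ± 0.05, adjusted p = 0.0113). It was not called without 4T1-Sca1- replicate 1 or replicate 3, with a log2 fold change of 0.12 in both fits (edgeR adjusted p = 0.0583 and 0.0527). The alpha chains of these receptors, Itgam and Itgax, had at most 4 counts in any library. C1qbp, which encodes a mitochondrial protein that also binds C1q, was the 1 gene called lower, with 3182 ± 175 and 3513 ± 144 (log2 fold change -0.13 ± 0.05, adjusted p = 0.0301) and overlapping groups. It was not called with library totals alone in place of TMM scaling (-0.09, edgeR adjusted p = 0.139), nor, at -0.13 to -0.11, without 4T1-Sca1+ replicate 4, 4T1-Sca1- replicate 1 or 4T1-Sca1- replicate 3.

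**Figure D5:**
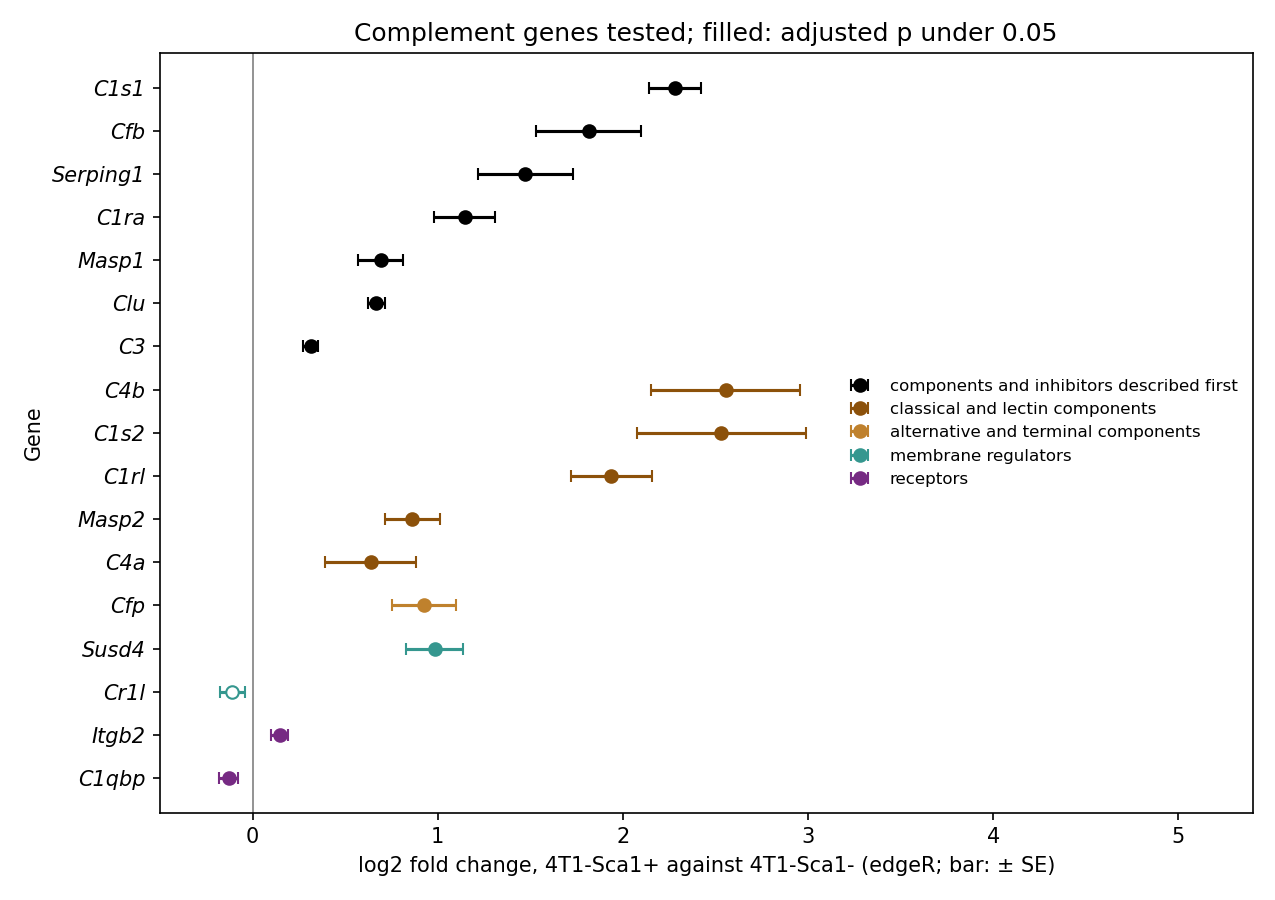
log2 fold change of 4T1-Sca1+ against 4T1-Sca1- (edgeR, bars ± SE) for the 17 complement genes shown, coloured by role, with an open symbol for the 1 gene not called. C4b has the highest value at 2.56, and Cr1l (-0.11, which turned to 0.016 with GC-corrected offsets) and C1qbp (-0.13) are the 2 genes below 0.

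Some markers of other cells differed between the groups. Of 18 leukocyte markers 11 had counts, 6 of them at most 10 in every library, and the 5 tested (Itgb2, S100a8, Csf1r, Cd68, Cd74) were all higher in 4T1-Sca1+. Their summed level was 248 to 265 CPM in 4T1-Sca1+ and 205 to 223 in 4T1-Sca1-, and without Itgb2 it was 27.2 to 31.6 and 14.7 to 17.0. S100a8 had 33 to 50 counts in 4T1-Sca1+ libraries and 3 to 10 in 4T1-Sca1- ones. It passed the low-count filter only with the help of the 4T1-Sca1+ libraries. Over all tested genes, 31.3% were called higher in 4T1-Sca1+ and 30.2% lower. Of 10 fibroblast markers 7 had counts, with sums of 42.7 to 45.0 and 25.7 to 29.8. Col1a1 and Pdgfra were higher in 4T1-Sca1+, and Postn was not called (log2 fold change 0.05, adjusted p = 0.868). Untested, Dcn had 6 to 15 counts in 4T1-Sca1+ libraries against 1, and Pdgfrb 3 to 14 against 0 to 1. Fap went the other way, with 0 to 3 against 2 to 4, and Col1a2 had at most 8 in any library. Of 8 endothelial markers 7 had counts, with sums of 2.33 to 2.93 and 2.82 to 4.28, and the 1 tested, Tie1, was lower. All 10 epithelial markers had counts, with sums of 3020.1 to 3302 and 2903 to 3058, and of 9 tested 2 were higher and 4 lower. The part of these markers in the complement differences was not tested.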

How the data were processed

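RNA of 4T1 cells sorted by SCA1 (4 libraries of 4T1-Sca1+, 4 of 4T1-Sca1-) was sequenced after an Illumina TruSeq preparation. Per the submitters' processing notes, cutadapt 1.16, STAR 2.5.3a and GRCm38/mm10 were used. The counting tool, annotation and use of strand are not given in the sources used here. The authors deposited raw counts per Ensembl gene and a normalized signal for 15372 genes, which equalled counts divided by DESeq2 size factors to a relative difference of 4.96e-15. Symbols, positions and exon lengths came from GENCODE M21 (16202 genes matched, 139 not), and promoters from RefSeq. Counts were tested with edgeR 4.0.16 (R 4.3.3) after filterByExpr, which asks for about 10 counts (0.659 CPM) in 4 libraries, TMM scaling and a two-sided quasi-likelihood test with no covariate, with Benjamini-Hochberg adjustment over 11717 genes and a call at 0.05. The SE is the absolute log2 fold change over the square root of F, and 95% intervals are normal intervals from it. Adjusted p-values printed are from this test unless another is named. The pipeline was tested on simulated data. Named genes are the 9, every other listed complement gene passing the filter, and Ly6a (1 listed gene is not reported here), with Cd46, C5ar2, Hc, Fcna, C1rb and the neighbours of C1s1 named after their values were seen. Members and lists were chosen with earlier results of these data known. Alternatives were DESeq2 size factors, library totals alone, a filter of 10 counts per library or none, limma-voom (limma 3.58.1), the DESeq2 1.42.0 test, GC-corrected offsets, a replicate block, stricter thresholds, 2 counts added in ratios and leaving out each library. Summing near copies was chosen after seeing the data. Reads carry no molecular identifiers and may be PCR copies, so floors cover counting error only.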

Additional observations from a re-analysis of the deposited data

Results flagged for a closer look

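In 42 groups of 4 libraries (17 genes and 4 ratios), 3 libraries stood apart from the other 3 of their group by Dixon's criterion, where chance gives about 2.1. Cfb had 17.4 normalized counts in 4T1-Sca1+ replicate 1, against 24.7 to 25.9 in the others, still above every 4T1-Sca1- library. C1rl was at 45.9 in 4T1-Sca1+ replicate 3, against 35.6 to 36.5. The log2 ratio of C1s1 to Serping1 was 2.53 in 4T1-Sca1+ replicate 4, against 2.33 to 2.34.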

How the results depend on the processing

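All 7 tested genes of the 9 kept their direction and call in each alternative in which they were tested (15 or 16 each). With the replicate block, 7 of them were higher and 0 lower, 8 other complement genes were higher and 1 lower, and over all genes 3605 were higher and 3452 lower, so the block moved no count by over 1.5 times. Replicate numbers were not taken to pair the libraries: the correlations of same-numbered libraries' deviations ran from -0.15 to 0.0957, and 1 of 8 libraries correlated best with its own number. Asking for an absolute log2 fold change of 1 or more, 4 of the 9 genes, 3 of the other complement genes and 612 of all genes were called higher, and 0 other complement genes and 103 of all genes lower. With at least 10 counts in every library, 5 other complement genes were called higher, since 7 were then tested. The 1 other complement gene called lower was lost (0) with library totals alone, at an adjusted p under 0.01 and, leaving out libraries, in a range of 0 to 1. Without 4T1-Sca1- replicate 1, 6 other complement genes were higher. With library totals alone 4118 of all genes were higher and 2984 lower. The Cr1l log2 fold change turned to 0.016 with GC-corrected offsets. Over the 18 named genes tested, 269 of 282 alternative fits kept direction and call. The cause of these changes was not tested. Depth limits Cd55 and Cd59a, whose differences were not detectable here.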

Other observations

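Of the listed complement genes in the count table, 22 (Cd55 and Cd59a included) had too few counts to be tested, and 11 of these had at most 3 counts in every library. Without the low-count filter, C5ar2, which encodes the second receptor of the anaphylatoxin C5a, had 40 counts in all 4T1-Sca1+ libraries together and 3 in the 4T1-Sca1- ones (log2 fold change 3.38 ± 0.65, adjusted p = 1.13e-05 by edgeR). Hc, the C5 gene, had 14 counts and 1 (adjusted p = 0.0105), and Fcna, a ficolin gene of the lectin arm, had 43 and 18 (adjusted p = 0.0452). C5ar1, the classical C5a receptor gene, had 1 count in each group, and C3ar1, the C3a receptor gene, had 1 and 6. These genes were named after their values were seen.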
